A study of Danio rerio with 10 samples.

Results

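Genes that carry out mitosis and chromosome segregation were read in RNA-seq of adult zebrafish brain. The set was a list of 51 gene names, matched ignoring case to the symbols of the 32266 genes counted. Of these names, 45 matched, each to 1 gene, and 6 (*ube2c*, *kif4*, *birc5a*, *incenp*, *prc1a* and *prc1b*) were not matched and have no value here; RefSeq's annotation of GRCz12tu, an assembly other than the one aligned to, holds *kif4* and no *kif4a*, so the unmatched *kif4* may be the gene matched as *kif4a*. The matched genes comprise 8 kinases and checkpoint genes, 5 genes for cyclins, an activator of the anaphase-promoting complex and separase, 8 kinesins, 5 spindle-associated genes, 7 kinetochore genes, 1 gene of the chromosomal passenger complex, 8 condensin and other chromosome genes, and 3 cytokinesis genes. *aurkb*, the kinase of the passenger complex, is counted with the kinases. All 45 passed the filter on low counts in every comparison. They were weakly expressed, with between 3 and 448 counts per library and a median of 51, and 40 of them had at least 10 counts in every library.

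The fish were of the Tübingen strain and 6 months old, and each library was made from 2 pooled brains. WT fish on vehicle gave 2 libraries, and fish labelled *ppp2r2c* m/m gave 2 libraries on vehicle, 3 on methylphenidate (MPH, 1.08 mg/kg) and 3 on valproate (300 mg/kg). The drugs were dissolved in PBS and given on soaked food for 3 days. *ppp2r2c* encodes a brain form of the regulatory B subunit of protein phosphatase 2A (PP2A), and the study's mutants carry a frameshift made by CRISPR-Cas9. The labels write m/m and also call these fish the a4 mutant, while the study's text describes the sequenced mutants as its m1/m1 line. The labels do not tie a4 to a line by name. The labels give no sex and include no WT fish on either drug, so a drug effect in WT cannot be read. Both drugs were compared with the same m/m vehicle libraries, which also serve in the genotype comparison.

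To divide, a cell activates the kinase Cdk1 through its cyclins, compacts its chromosomes with condensin and topoisomerase II, and attaches them through kinetochores to a spindle built by kinesins and other microtubule-binding proteins. The Aurora and Polo-like kinases and the spindle checkpoint watch over attachment, the anaphase-promoting complex then triggers the cut of cohesin by separase, and the cytokinesis machinery separates the daughter cells. Transcripts of most of these genes are at their most abundant around G2 and M phase. In the adult zebrafish brain, unlike most adult mammalian brain regions, dividing cells (mainly radial glia and their progeny) remain along the ventricles of many regions. In bulk tissue, fewer cells of a type and less RNA per cell cannot be told apart.

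Library totals ran from 19224942 to 25851076 counts. Levels are CPM, counts scaled to library size, after TMM scaling over all 10 libraries; they are not corrected for gene length, so they compare libraries and not genes. Fold changes come from edgeR's quasi-likelihood test fitted on all genes of the groups compared, with Benjamini-Hochberg adjusted p values, and "called" means an adjusted p under 0.05. *ppp2r2c* itself (ENSDARG00000056797) had 1105 and 1239 counts in WT and 1053 and 1026 in m/m vehicle, which differed by −0.17 on the log2 scale (SE, standard error, 0.13; adjusted p = 0.69997), and counts per gene do not read the edited allele. Its level was 50.3 and 54.6 CPM in WT, 46.3 and 46.7 in m/m vehicle, 49.1, 70.5 and 39.2 with MPH, and 70.5, 56.1 and 59.6 with valproate. Every valproate library lay above both m/m vehicle libraries, and the log2 fold change against them was 0.41 (SE 0.14; adjusted p = 0.205) with valproate and 0.19 (SE 0.25; adjusted p = 0.819) with MPH. The gene *ppp2r2cb* (ENSDARG00000062277) had 26.4 and 28.5 CPM in WT against 18.3 and 17.7 in m/m vehicle, and was not called. By RT-qPCR, the study reports a reduced level of the mutant *ppp2r2c* mRNA.

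The MPH libraries were the least alike of any group. Over genes, the median absolute log2 difference between 2 libraries was 0.31, 0.37 and 0.40 within MPH, 0.19 to 0.30 within valproate, 0.21 within m/m vehicle, 0.25 within WT and 0.23 to 0.27 between WT and m/m vehicle. MPH replicate 1 differed from every other library by 0.31 to 0.43 and had the lowest TMM factor (0.875) and the fewest genes with a count (21142, against up to 23618). MPH replicate 2 was nearest to valproate replicate 1, at 0.21, and MPH replicate 3 to valproate replicate 2, at 0.25. Valproate replicate 1 was nearer to MPH replicate 2 than to valproate replicates 2 and 3 (0.30 and 0.28). MPH replicate 1 was nearest to MPH replicate 2, at 0.31, and valproate replicates 2 and 3 to each other, at 0.19.

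Mitosis genes were about as high in WT as in valproate-treated m/m brains and highest in m/m brains on vehicle. The summed level of the 45 genes was 99.9 and 107.5 CPM in WT, 230.4 and 190.7 CPM in m/m vehicle, 142.3, 139.5 and 109.8 CPM with MPH, and 110.5, 109.8 and 88.1 CPM with valproate. Both vehicle libraries of m/m lay above all 8 other libraries. Group means were 103.7 ± 5.41 (SD, n = 2) in WT, 210.5 ± 28.1 (SD, n = 2) in m/m vehicle, 130.5 ± 18.0 (SD, n = 3) with MPH and 102.8 ± 12.7 (SD, n = 3) with valproate. The m/m vehicle group had the highest mean for 37 of the 45 genes, MPH for 7 and WT for 1. The first m/m vehicle library alone held the highest value of all 10 libraries for 31 genes.

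**Figure D1:**
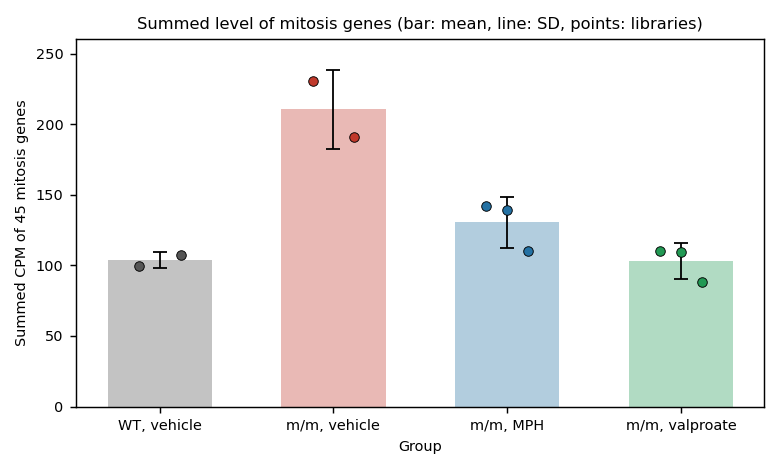
Summed CPM of the 45 mitosis genes (vertical axis) by group; bars are group means, lines are SDs and points are single libraries. Both m/m vehicle libraries, at 230.4 and 190.7 CPM, sit above every library of the other groups.

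**Figure D2:**
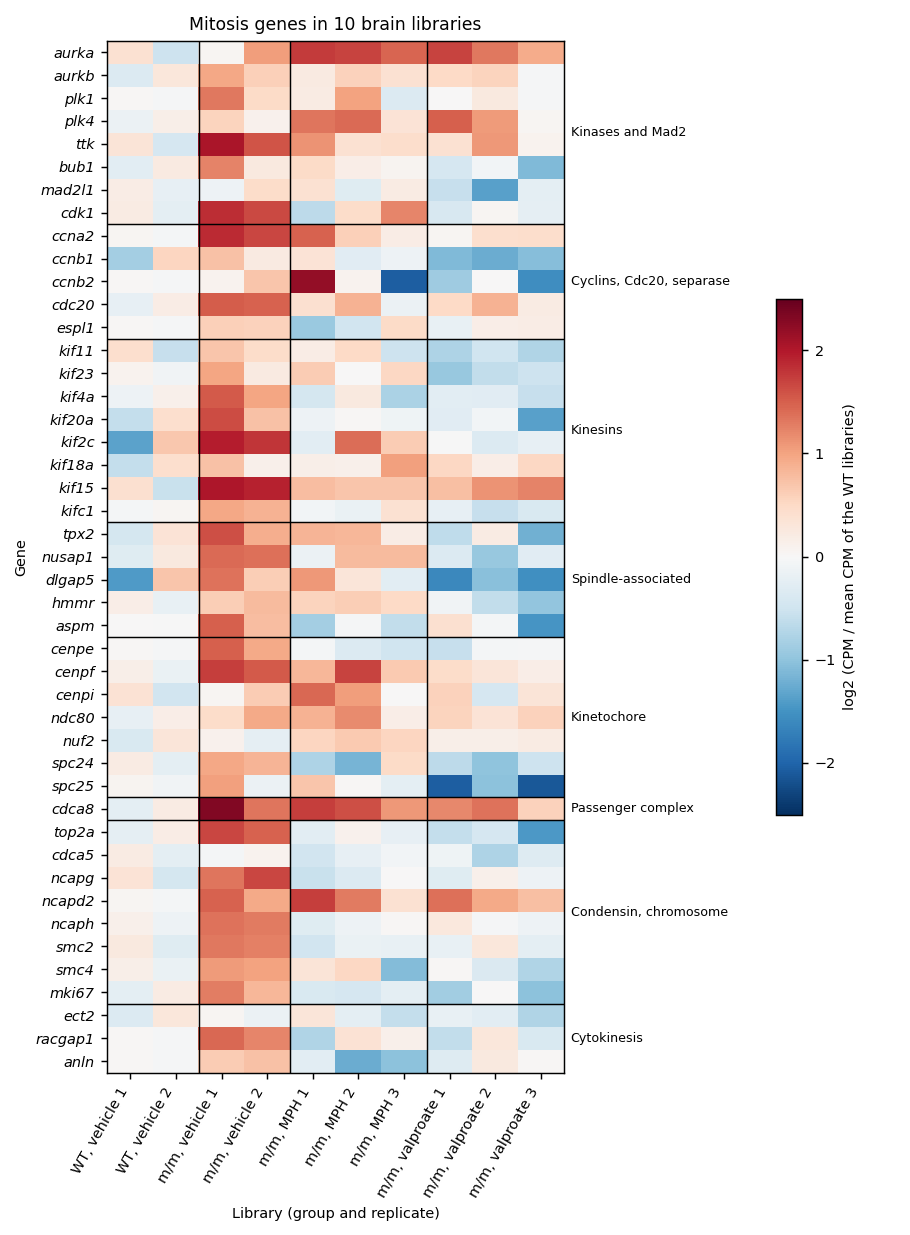
Level of each of the 45 genes (vertical axis, grouped by role) in each of the 10 libraries (horizontal axis), as log2 of its CPM over the mean CPM of the WT libraries. Red marks values above WT and blue values below. The m/m vehicle columns are red for most genes. Several genes, among them *aurka*, *plk4*, *ncapd2*, *cdca8*, *ttk*, *kif15*, *ccna2* and *cenpf*, also stay red in most drug-treated columns.

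The first comparison asked how m/m brains on vehicle differ from WT brains. Of the 45 genes, 43 were higher in m/m, with a median log2 fold change of 1.05 against −0.0055 over all genes tested; *ect2* and *nuf2* were lower. No gene was called by edgeR (0.193% of all genes were), and the lowest adjusted p, of *top2a*, was 0.0505. DESeq2's Wald test called 4 genes (295 of all 19695 genes) and limma-voom 0 (10 of all genes). At an unadjusted p under 0.05, 22 genes were higher (48.9%, against 4.8% of all genes) and none was lower (against 5.22%). In 34 genes (75.6%, against 20.5% of all genes) both m/m libraries lay above both WT libraries, and in none below (against 22%). The median was 0.84 without the first m/m vehicle library, and 0.98 and 1.14 without WT replicate 1 or 2.

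The second comparison asked what MPH, a stimulant that the study used as an activator of PP2A, does in m/m brains. Of the 45 genes 38 were lower than in m/m vehicle (median log2 fold change −0.65, against 0.0083 over all genes), and 7 were higher. Only *top2a* was called by edgeR (0.0603% of all genes were called lower and 0.216% either way). DESeq2's Wald test called 7 (540 of all 19907 genes) and limma-voom 3 (430 of all genes). At an unadjusted p under 0.05, 15 genes were lower (33.3%, against 4.97%) and none was higher (against 6.73%). The 3 MPH libraries lay below both vehicle libraries in 26 genes (57.8%, against 15.9%) and above both in 2, *aurka* and *nuf2* (against 15.7%). The median was −0.40 without the first vehicle library and −0.91 without the second. Without MPH replicate 3 edgeR called 4 (731 of all 19475 genes). Without MPH replicate 1, 12 genes were lower at an unadjusted p under 0.05 (9.58% of all genes changed either way) and the median was −0.75.

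The third comparison asked the same of valproate, an anticonvulsant and inhibitor of histone deacetylases. It gave lower values in 42 genes, with a median log2 fold change of −1.31 (0.0040 over all genes); *aurka*, *nuf2* and *plk4* were higher. No gene was called by edgeR (0.131% of all genes were), and the lowest adjusted p, of *top2a*, was 0.0501. DESeq2's Wald test called 18 (1154 of all 19850 genes) and limma-voom 12 (536 of all genes). At an unadjusted p under 0.05, 30 genes were lower (66.7%, against 7.82%) and none was higher (against 9.08%). All 3 valproate libraries lay below both vehicle libraries in 37 genes (82.2%, against 17.4%) and above both in 1, *nuf2* (against 19.3%). The median was −1.16 without the first vehicle library. Without valproate replicate 1 or 3 edgeR called 5 (712 of all 19514 genes) and 1 (67 of all 19578).

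**Figure D3:**
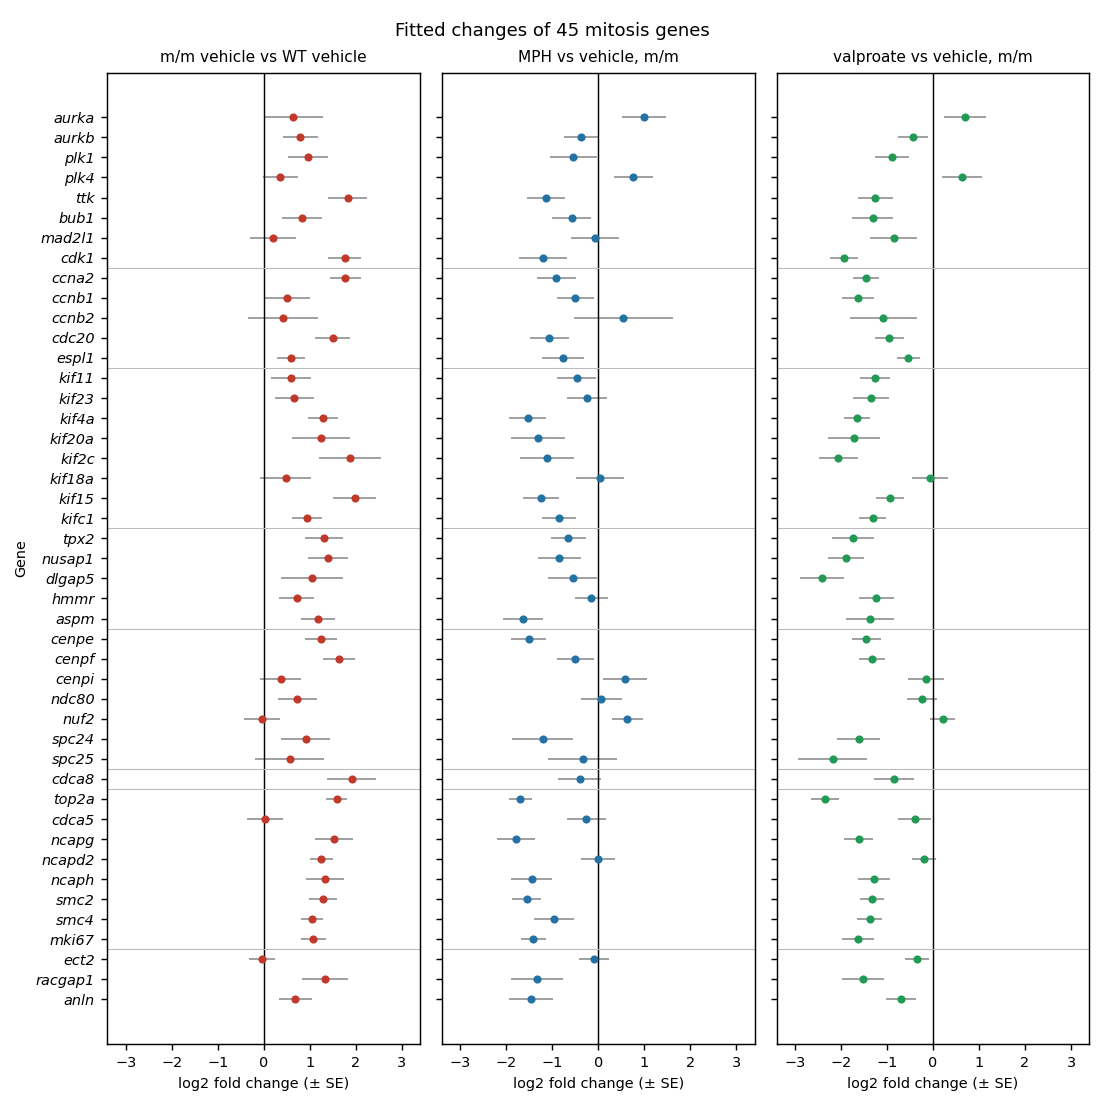
Fitted log2 fold change (horizontal axis) of each of the 45 genes (vertical axis, grouped by role in the same order as the map of levels) for m/m vehicle against WT, and for MPH and valproate against vehicle in m/m; points are estimates and lines are standard errors. Points lie to the right of 0 for 43 genes in the genotype panel and to the left for 38 with MPH and 42 with valproate, the drug panels sharing their vehicle libraries with the first.

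Condensin and other chromosome genes had the highest class median apart from *cdca8*, the only gene of its class. All 8 were higher in m/m vehicle than in WT (median log2 fold change 1.27; 7 at an unadjusted p under 0.05) and all 8 were lower with each drug (median −1.43 with MPH and −1.35 with valproate, 5 and 6 genes at an unadjusted p under 0.05). *top2a*, the topoisomerase that untangles sister chromatids, had 5.28 and 7.01 CPM in WT, 19.7 and 17.1 in m/m vehicle, 5.09, 6.61 and 5.30 with MPH, and 4.07, 4.59 and 2.26 with valproate. Its vehicle libraries stood well above all others, the WT and MPH libraries overlapped, and the valproate libraries were the lowest. *top2a* fell with MPH, with a log2 fold change of −1.70 (SE 0.25; adjusted p = 0.0491). In m/m against WT it had a log2 fold change of 1.59 (SE 0.23; adjusted p = 0.0505), and with valproate a log2 fold change of −2.35 (SE 0.30; adjusted p = 0.0501). The call with MPH was lost without either vehicle library or without MPH replicate 1 or 2, and with DESeq2's size factors in edgeR, while the log2 fold change stayed between −1.82 and −1.60 when single libraries were left out.

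*smc4*, an ATPase subunit of condensin, had 6.28 and 5.07 CPM in WT, 11.9 and 11.4 in m/m vehicle, 7.07, 8.16 and 2.69 with MPH, and 5.82, 4.39 and 3.37 with valproate. Both vehicle libraries were again the highest, and the third MPH library was the lowest of all. Its log2 fold change was 1.05 (SE 0.23) for genotype, −0.97 (0.43) with MPH and −1.38 (0.27) with valproate. *smc2*, its partner ATPase, was named after its values were seen, with 3.82 and 2.601 CPM in WT, 7.996 and 7.68 in m/m vehicle, 2.30, 2.87 and 2.82 with MPH, and 2.81, 3.90 and 2.72 with valproate, and its groups other than m/m vehicle overlapped. Its log2 fold change of 1.29 (SE 0.30; adjusted p = 0.222) for genotype compared with a log2 fold change of −1.56 (SE 0.32; adjusted p = 0.127) with MPH. *ncapg* and *ncaph*, further subunits of condensin I, were also lower with both drugs, by log2 fold changes of −1.79 and −1.45 with MPH and −1.62 and −1.29 with valproate. *mki67*, which coats mitotic chromosomes and is widely used as a marker of proliferation, was at −1.41 and −1.63, while *cdca5* (sororin, a protector of cohesin) was at −0.26 and −0.40, and at 0.03 (SE 0.39) for genotype.

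*ncapd2*, another subunit of condensin I, had its own pattern in the drug-treated libraries, with 5.78 and 5.47 CPM in WT, 15.6 and 10.9 in m/m vehicle, 18.6, 13.8 and 7.35 with MPH, and 14.6, 10.8 and 9.50 with valproate. All m/m libraries lay above WT. Against m/m vehicle, the MPH libraries lay above, between and below its values, and the valproate libraries between and below them. It had a log2 fold change of 1.25 (SE 0.25; adjusted p = 0.149) for genotype, a log2 fold change of −0.01 (SE 0.37; adjusted p = 0.995) with MPH and a log2 fold change of −0.20 (SE 0.25; adjusted p = 0.745) with valproate. Within each library, *ncapd2* over the mean CPM of *smc2*, *smc4*, *ncapg* and *ncaph* was 1.70 and 2.18 in WT, 2.29 and 1.59 in m/m vehicle, 6.44, 4.08 and 3.47 with MPH, and 5.10, 3.81 and 4.34 with valproate. All 6 drug-treated libraries lay above all 4 vehicle libraries; the ratio was chosen after the values were seen, is not corrected for length and was not tested.

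**Figure D4:**
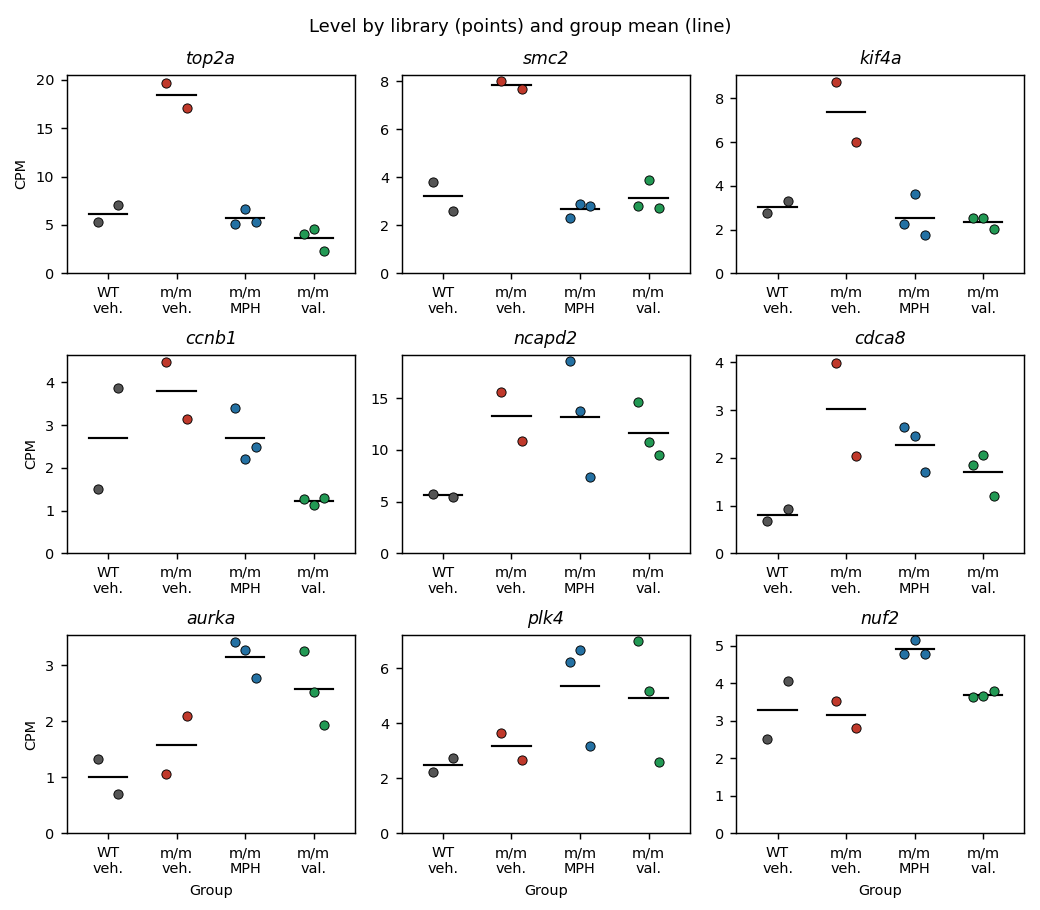
CPM (vertical axes, from 0) of 9 genes in each library (points) of the 4 groups, with group means as lines. *top2a*, *smc2* and *kif4a* are highest in m/m vehicle; *ncapd2* and *cdca8* are lowest in WT; *aurka* and *plk4* have their highest group mean with MPH.

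Kinases and checkpoint genes were split. All 8 were higher in m/m vehicle than in WT (median log2 fold change 0.82, 2 at an unadjusted p under 0.05), 6 were lower with each drug (medians −0.47 and −0.87), and *aurka* and *plk4* were higher with both. *aurkb*, the Aurora kinase of the passenger complex, had 1.82 and 2.82 CPM in WT, 4.53 and 3.50 in m/m vehicle, 2.70, 3.48 and 3.04 with MPH, and 3.30, 3.40 and 2.26 with valproate. Its m/m vehicle libraries were the highest, although MPH replicate 2 lay just below the second. *bub1*, a spindle checkpoint kinase, had 2.00 and 2.78 CPM in WT, 5.67 and 2.82 in m/m vehicle, 3.32, 2.69 and 2.52 with MPH, and 1.79, 2.27 and 1.11 with valproate. The valproate libraries lay below both vehicle libraries and the MPH libraries did not; the log2 fold change was −1.31 (SE 0.44; adjusted p = 0.206) with valproate. Of the others, *cdk1*, the kinase that drives entry into mitosis, and *ttk* (Mps1, which starts the checkpoint) differed most between genotypes, with log2 fold changes of 1.76 and 1.83, against 0.96 for *plk1* and 0.20 for the checkpoint gene *mad2l1*. With valproate *cdk1* was at −1.94 (SE 0.30, adjusted p = 0.0635).

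*plk4*, the kinase that starts centriole duplication, had 2.23 and 2.73 CPM in WT, 3.65 and 2.68 in m/m vehicle, 6.23, 6.66 and 3.16 with MPH, and 6.98, 5.18 and 2.58 with valproate. Replicates 1 and 2 of each drug were above every vehicle library, and replicate 3 of each was not. Its log2 fold change was 0.75 with MPH (SE 0.42) and 0.62 with valproate (0.44), neither of them called, and 0.36 (0.39) for genotype. *aurka*, the Aurora kinase of centrosomes and spindle poles, was named after its values were seen and had 1.32 and 0.705 CPM in WT, 1.05 and 2.09 in m/m vehicle, 3.40, 3.26 and 2.78 with MPH, and 3.25, 2.51 and 1.94 with valproate. All MPH libraries lay above all 4 vehicle libraries, and the valproate libraries overlapped m/m vehicle and lay above WT. MPH gave a log2 fold change of 1.00 (SE 0.48; adjusted p = 0.467) against m/m vehicle and a log2 fold change of 1.62 (SE 0.52; adjusted p = 0.317) against WT. The estimate against m/m vehicle was 0.58 without the first vehicle library and 1.57 without the second.

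The 5 genes for cyclins, Cdc20 and separase were all higher in m/m vehicle (median log2 fold change 0.60, 2 at an unadjusted p under 0.05). With MPH 4 were lower (median −0.77) and with valproate all 5 (median −1.08, 3 at an unadjusted p under 0.05). *ccna2* encodes cyclin A2, which acts from S phase into mitosis, and had 1.77 and 1.68 CPM in WT, 6.33 and 5.46 in m/m vehicle, 4.82, 2.601 and 1.97 with MPH, and 1.79, 2.32 and 2.35 with valproate. Vehicle libraries of m/m were the highest, and all drug-treated libraries were above the WT values. *ccna2* had a log2 fold change of 1.78 (SE 0.33; adjusted p = 0.125) for genotype and of −1.46 (SE 0.28) with valproate. *ccnb1*, whose cyclin B1 activates Cdk1, had 1.50 and 3.88 CPM in WT, 4.48 and 3.14 in m/m vehicle, 3.40, 2.205 and 2.48 with MPH, and 1.26, 1.13 and 1.29 with valproate. The WT and m/m vehicle libraries overlapped, and the valproate libraries were below all 7 others. Its log2 fold change of −1.64 (SE 0.35; adjusted p = 0.0944) with valproate stood beside −0.50 (SE 0.40) with MPH. *espl1*, which encodes separase, had 3.50 and 3.35 CPM in WT, 5.18 and 5.14 in m/m vehicle, 1.81, 2.47 and 4.79 with MPH, and 3.01, 3.85 and 3.92 with valproate. The m/m vehicle libraries were the highest by a small margin (log2 fold change 0.60, SE 0.30, for genotype). *cdc20*, the activator of the anaphase-promoting complex, was at 1.50 for genotype, −1.06 with MPH and −0.95 with valproate, and *ccnb2*, another B-type cyclin, had few counts and ran from 0.128 to 2.48 CPM within the MPH group.

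All 8 kinesins were higher in m/m vehicle than in WT (median log2 fold change 1.09, 4 at an unadjusted p under 0.05). With MPH 7 were lower (median −0.99, 3 at an unadjusted p under 0.05), and with valproate all 8 (median −1.33, 7 at an unadjusted p under 0.05). *kif4a*, a chromosome-bound motor that also organizes the central spindle, had 2.78 and 3.31 CPM in WT, 8.74 and 6.00 in m/m vehicle, 2.26, 3.62 and 1.75 with MPH, and 2.52, 2.51 and 2.03 with valproate. Only the vehicle libraries of m/m exceeded 4 CPM. It had a log2 fold change of 1.28 (SE 0.32) for genotype, −1.54 (0.41) with MPH and −1.66 (0.28) with valproate. *kifc1*, a minus-end motor that focuses spindle poles, had 2.41 and 2.601 CPM in WT, 4.92 and 4.59 in m/m vehicle, 2.39, 2.25 and 3.25 with MPH, and 2.18, 1.68 and 1.94 with valproate. Here too the m/m vehicle libraries were apart from the rest. *kif11*, which pushes spindle poles apart, had 3.32 and 1.68 CPM in WT, 4.04 and 3.46 in m/m vehicle, 2.83, 3.53 and 1.75 with MPH, and 1.45, 1.78 and 1.48 with valproate. Its WT libraries differed more from each other than its m/m vehicle libraries did, and its valproate libraries lay below those of m/m vehicle (log2 fold change −1.27, SE 0.32, adjusted p = 0.131).

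Among the other kinesins, *kif15* and *kif2c*, a spindle motor and a microtubule depolymerase, had the highest genotype estimates, at 1.98 and 1.87, and *kif20a*, of the central spindle, was at 1.25. That of *kif2c* was 1.20 without WT replicate 1 and 3.19 without WT replicate 2. *kif23*, a motor of the central spindle, was near its vehicle level with MPH (log2 fold change −0.25, SE 0.44) and at −1.35 (0.40) with valproate. *kif18a*, which dampens chromosome movements, showed no difference beyond its error in any of these 3 comparisons (0.48, 0.03 and −0.07, standard errors 0.55, 0.52 and 0.39).

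All 5 spindle-associated genes were higher in m/m vehicle (median log2 fold change 1.18, 3 at an unadjusted p under 0.05) and lower with both drugs, with a median of −0.65 for MPH and −1.74 for valproate (1 and 5 at an unadjusted p under 0.05). *tpx2*, which activates Aurora A and nucleates microtubules, had 1.73 and 2.95 CPM in WT, 7.16 and 4.37 in m/m vehicle, 4.201, 4.14 and 2.65 with MPH, and 1.50, 2.71 and 1.01 with valproate. The MPH libraries were below both vehicle libraries, and the valproate libraries lower still with 1 overlap. *aspm*, a spindle-pole protein whose human gene is mutated in primary microcephaly, had 2.32 and 2.29 CPM in WT, 6.46 and 3.96 in m/m vehicle, 1.28, 2.25 and 1.50 with MPH, and 3.05, 2.22 and 0.830 with valproate. All drug-treated libraries were below both vehicle libraries. *hmmr*, which organizes spindle microtubules, had 2.37 and 1.85 CPM in WT, 3.25 and 3.64 in m/m vehicle, 3.10, 3.22 and 2.99 with MPH, and 1.99, 1.38 and 1.06 with valproate. MPH libraries lay just below the vehicle libraries, and the valproate libraries were below all 5 of these. *dlgap5* and *nusap1*, microtubule-binding proteins of the spindle, had the lowest valproate estimates of this class, at −2.42 and −1.89.

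The 7 kinetochore genes were not uniform under MPH. Of these, 6 were higher in m/m vehicle (median log2 fold change 0.73, 2 at an unadjusted p under 0.05), 4 were lower with MPH (median −0.34) and 6 with valproate (median −1.33, 4 at an unadjusted p under 0.05). *cenpf*, a large protein of the outer kinetochore, had 1.87 and 1.50 CPM in WT, 5.58 and 4.87 in m/m vehicle, 3.01, 5.42 and 2.65 with MPH, and 2.33, 2.07 and 1.89 with valproate. Its valproate libraries were below all vehicle libraries of m/m and 1 MPH library lay between those of m/m vehicle. *cenpi*, of the constitutive centromere complex, had 3.05 and 1.72 CPM in WT, 2.46 and 3.68 in m/m vehicle, 6.46, 4.89 and 2.39 with MPH, and 3.54, 1.78 and 3.00 with valproate. No pair of groups was separated in it. *nuf2*, a subunit of the NDC80 complex that binds microtubules, had 2.50 and 4.06 CPM in WT, 3.51 and 2.82 in m/m vehicle, 4.78, 5.16 and 4.79 with MPH, and 3.64, 3.65 and 3.78 with valproate. Every MPH library was above every other library, and the valproate libraries were just above m/m vehicle. The log2 fold change of *nuf2* was 0.63 (SE 0.34, adjusted p = 0.522) with MPH and −0.04 (0.39) for genotype.

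The 4 genes of the NDC80 complex had estimates on both sides of 0 with each drug. *ndc80* was at 0.06 with MPH and −0.24 with valproate, *spc24* at −1.21 and −1.62, and *spc25* at −0.34 and −2.19, none of them called. The CPM of *ndc80* and *nuf2* over that of *spc24* and *spc25* was 2.26 and 4.25 in WT, 1.86 and 2.65 in m/m vehicle, 5.11, 8.54 and 3.57 with MPH, and 7.94, 7.38 and 7.67 with valproate. The valproate libraries were above all 4 vehicle libraries and 1 MPH library was below a WT library; this ratio too was chosen after the values were seen, rests on few counts for *spc25* and was not tested. *cenpe*, a kinetochore motor, was at 1.25, −1.52 and −1.45 in the 3 comparisons.

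Beside *aurkb*, read with the kinases above, the passenger complex was represented only by *cdca8*, which encodes borealin. *cdca8* had 0.683 and 0.926 CPM in WT, 4.00 and 2.05 in m/m vehicle, 2.65, 2.47 and 1.71 with MPH, and 1.84, 2.07 and 1.20 with valproate. WT libraries were the lowest, and the drug-treated libraries overlapped m/m vehicle. Its log2 fold change of 1.91 (SE 0.54; adjusted p = 0.311) for genotype was the second highest among the 45 genes, and the estimates with MPH and valproate were −0.41 (SE 0.47) and −0.84 (0.43).

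Of the 3 cytokinesis genes, 2 were higher in m/m vehicle (median log2 fold change 0.69) and all were lower with MPH (median −1.34) and valproate (median −0.69). *ect2*, the exchange factor that activates RhoA at the division plane, had 5.55 and 8.51 CPM in WT, 7.29 and 6.32 in m/m vehicle, 8.62, 5.91 and 4.66 with MPH, and 6.16, 5.82 and 4.15 with valproate. All groups overlapped apart from valproate and m/m vehicle, and the genotype estimate was −0.04 (SE 0.29). *anln*, the scaffold of the contractile ring, had 2.23 and 2.12 CPM in WT, 3.38 and 3.59 in m/m vehicle, 1.81, 0.926 and 1.07 with MPH, and 1.75, 2.56 and 2.21 with valproate. MPH libraries were below those of WT and m/m vehicle, and valproate libraries overlapped WT. *anln* had a log2 fold change of 0.69 (SE 0.36) for genotype, −1.46 (0.48) with MPH and −0.69 (0.32) with valproate. *racgap1*, of the central spindle complex, had 0.910 and 0.882 CPM in WT, 2.42 and 2.09 in m/m vehicle, 0.531, 1.15 and 0.983 with MPH, and 0.582, 1.08 and 0.692 with valproate. Its m/m vehicle libraries stood above all others (1.33, SE 0.50, for genotype; −1.34 and −1.53 with MPH and valproate).

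The drugs were also compared with each other directly, at the single dose each was given and with no dose common to both. Levels were higher with MPH than with valproate in 36 of the 45 genes (median log2 fold change 0.40, against 0.0019 over all genes) and lower in 9. No gene was called by edgeR (0% of all genes were), by DESeq2's Wald test (40 of all 19387 genes) or by limma-voom (0 of all genes). The lowest edgeR adjusted p among the 45 genes was 0.997. At an unadjusted p under 0.05, 6 genes were higher with MPH (13.3%, against 2.25%) and none lower (against 1.81%): *ccnb1*, *dlgap5*, *hmmr*, *kif23*, *spc25* and *tpx2*. In 11 genes (24.4%, against 4.46%) all MPH libraries lay above all valproate libraries, and in none below (against 4.68%). The spindle-associated genes had the highest class median, 1.07, and the condensin and chromosome genes the lowest, 0.16. *dlgap5*, at 1.85 (SE 0.55), and *spc25*, at 1.84 (0.69), had the highest estimates and *anln*, at −0.77 (0.44), the lowest. The highest estimates rest on few counts with valproate: 9, 13 and 10 for *dlgap5* and 3, 6 and 3 for *spc25*. Without any single valproate library 3 genes were higher with MPH at an unadjusted p under 0.05, and without MPH replicate 3 there were 10. Over all genes the share either way was 5.51%, 2.54% and 1.94% without valproate replicates 1, 2 and 3. It was 10.1% without MPH replicate 3, and 4.06% with every library.

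**Figure D5:**
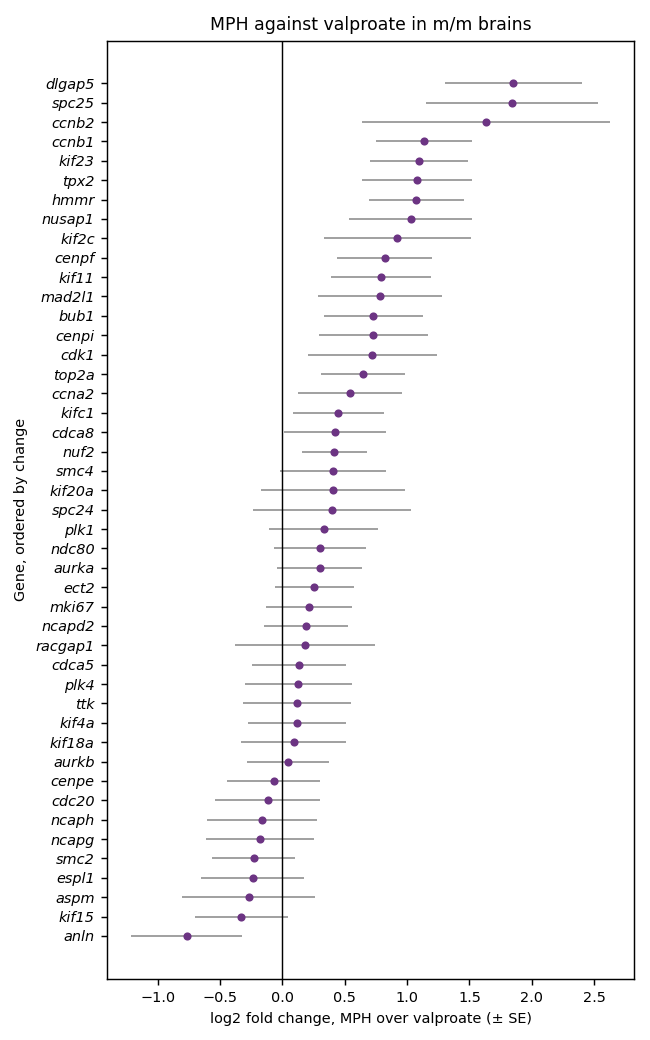
Log2 fold change of MPH over valproate in m/m brains (horizontal axis) for each of the 45 genes, ordered by estimate; points are estimates and lines are standard errors. Estimates run from −0.77 for *anln* to 1.85 for *dlgap5*, and 36 of 45 lie to the right of 0.

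The drug-treated m/m brains were also set against WT vehicle, which reuses the libraries above and cannot separate drug from genotype. With MPH, 29 genes were higher and 16 lower than in WT (median log2 fold change 0.39, against −0.016 over all genes). None was called by edgeR (0.194% of all genes were), where the lowest adjusted p was 0.317. DESeq2's Wald test and limma-voom called none either (530 and 119 of all 20052 genes). At an unadjusted p under 0.05, *aurka*, *cdca8*, *ncapd2* and *plk4* were higher (6.12% of all genes) and none was lower (against 5.44%). There was 1 higher gene without MPH replicate 1 and there were 2 without MPH replicate 2 (8.34% and 10.6% of all genes either way). The median was 0.13 without MPH replicate 1. The MPH libraries were above both WT libraries in 10 genes and below in 3, *anln*, *aspm* and *cenpe* (against 15.6% and 16% of all genes). With valproate, 18 genes were higher and 27 lower (median −0.18, against 0.0032 over all genes), and edgeR called none (0.115% of all genes were; lowest adjusted p 0.143). DESeq2's Wald test called 1, *ncapd2* (1080 of all 20024 genes), and limma-voom 0 (86 of all genes). At an unadjusted p under 0.05, *aurka* and *ncapd2* were higher (8.84% of all genes) and none was lower (against 7.06%), and the groups did not overlap in 8 higher and 9 lower genes (against 18.2% and 17.8% of all genes).

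Other genes of the same pathway and of DNA replication, listed separately from the 45, were read from the same fits. Of 75 further mitosis genes tested in m/m against WT, 62 were higher (9694 of all 19695 genes were), 13 of them at an unadjusted p under 0.05 (against 4.8% of all genes), with a median of 0.39. The only called gene among them was *smc1a* (ENSDARG00000055754), a cohesin subunit, which fell: 47.0 and 51.4 CPM in WT against 21.3 and 24.0 in m/m vehicle, a log2 fold change of −1.11 (SE 0.14, adjusted p = 0.0367). A second *smc1a* gene (ENSDARG00000058203) was at 77.4 and 80.8 CPM in WT and 85.0 and 84.1 in m/m vehicle. With MPH 48 of 77 were lower (median −0.21) and with valproate 58 of 76 (median −0.37), 8 and 15 at an unadjusted p under 0.05 (against 4.97% and 7.82% of all genes). Over all genes 9791 of 19907 were lower with MPH and 9841 of 19850 with valproate. Among DNA replication genes, 21 of 24 were higher in m/m vehicle (median 0.66), and *rrm2* (ENSDARG00000020711), a subunit of ribonucleotide reductase, rose, from 1.91 and 1.76 CPM in WT to 8.79 and 10.6 in m/m vehicle (log2 fold change 2.40, SE 0.29, adjusted p = 0.0344). A second *rrm2* gene (ENSDARG00000078069) went the other way, from 3.37 and 2.51 CPM in WT to 0 and 0.227 in m/m vehicle. With MPH 20 of 23 replication genes were lower (median −0.59) and with valproate 22 of 23 (median −0.75). *mcm2*, a subunit of the replicative helicase, fell with valproate from 35.7 and 25.8 CPM to 8.63, 6.06 and 5.72 (log2 fold change −2.19, SE 0.23, adjusted p = 0.0275).

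Markers of other cell types moved with some of these groups, and their part in the results was not tested. The 8 radial glia markers found summed to 957 to 1278 CPM in WT, 1442 to 1512 in m/m vehicle, 1154 to 1425 with MPH and 1127 to 1622 with valproate. Most of each sum was *s100b*, at 878 and 555 CPM in WT and 980 and 958 in m/m vehicle. It was at 850, 964 and 769 CPM with MPH and 1140, 762 and 807 with valproate. Of the 8 markers, 6 were higher and 2 lower in m/m vehicle than in WT. With MPH 3 were higher and 5 lower, and with valproate all 8 were lower. The 5 blood markers summed to 268 to 483 CPM in WT, 490 to 512 in m/m vehicle, 170 to 441 with MPH and 175 to 198 with valproate, and *hbaa1*, an alpha globin, and *alas2*, an enzyme of heme synthesis in red cells, fell with valproate (log2 fold changes −2.02 and −1.65, adjusted p = 0.0148 and 0.0173). *tubb5*, a tubulin of newborn neurons from the neuroblast list, had 184 and 216 CPM in WT, 361 and 274 in m/m vehicle, 110, 97.2 and 173 with MPH, and 102, 141 and 112 with valproate. Its m/m vehicle libraries were the highest and all drug-treated libraries were below WT, and it fell with valproate (log2 fold change −1.44, SE 0.18, adjusted p = 0.0477). The 7 neuroblast markers found summed to 545 to 589 CPM in WT, 654 to 765 in m/m vehicle, 520 to 728 with MPH and 651 to 804 with valproate. Of the 6 tested, 4 were lower and 2 higher with MPH, and 5 were lower and 1 higher with valproate. *neurod1*, also of this list, had 386 and 307 CPM in WT and 381 and 363 in m/m vehicle. It went the other way from *tubb5*, at 394, 592 and 539 CPM with MPH and 693, 505 and 524 with valproate. The 5 neuron markers summed to 1957 to 2408 CPM over all groups and mark the tissue as brain. Of the 45 genes, 44 were found in that RefSeq annotation, and 14 of them overlap another annotated gene. In 10, *top2a* and *tpx2* among them, it is protein-coding, while *ncapd2* overlaps only genes that are not. The overlap was read from the start and end of each gene, and exons and strands were not compared. Reads that fall in exons of both genes of a pair cannot be told apart without strand.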

How the data were processed

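RNA from pairs of whole brains was sequenced on an Illumina instrument as paired-end reads. The authors removed adapters and low-quality reads, trimmed the rest, aligned them with STAR 2.6.1d to the zv10 zebrafish release and counted reads per gene in its GeneCounts mode; which strand column was kept is not given in the sources used here, and the kit named in the labels does not mark strand. The deposited values are whole counts for 32266 genes in 10 libraries, without normalization. Library totals ran from 19224942 to 25851076 counts. A gene with 0 counts may still have had an expected count of up to 3, a limit that covers counting error only. Gene symbols were joined to the deposited IDs from a table of names.

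Pairs of groups were compared one at a time, with only the libraries of that pair in the fit. Weak genes were dropped by filterByExpr (minimum count 10, minimum total 15) in edgeR 4.0.16 (R 4.3.3), libraries were scaled by TMM, and p values of the quasi-likelihood test were adjusted over all genes tested by the Benjamini-Hochberg method, at a threshold of 0.05. Standard errors are the log2 fold change over the square root of F. The labels and design text call the libraries biological replicates; p values measure the spread between them. The genes and lists were chosen with earlier results of these data known.

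Values in every library are given for the 3 genes of each role with the highest mean CPM over all libraries and for genes with an adjusted p under 0.05. Genes outside that rule were named after their values were seen; these are *smc2*, *ncapg*, *ncaph*, *mki67*, *cdca5*, *aurka*, *cdk1*, *ttk*, *plk1*, *mad2l1*, *cdc20*, *ccnb2*, *kif15*, *kif2c*, *kif20a*, *kif23*, *kif18a*, *dlgap5*, *nusap1*, *ndc80*, *spc24*, *spc25* and *cenpe*. Further lists covered other mitosis genes, cell-cycle transcription factors, the Greatwall and B55 module, DNA replication genes and markers of radial glia, neuroblasts, oligodendrocytes, microglia and leukocytes, endothelium, blood, pituitary, retina and lens, muscle and neurons. From these lists, *ppp2r2cb*, *neurod1* and *s100b* were also named after their values were seen. Alternatives were DESeq2 1.42.0 (Wald test, and its size factors in edgeR), another filter on low counts (none, or a minimum of 10 in each library), a single fit to all 10 libraries, limma 3.58.1 (voom, libraries weighted by quality), a block for the replicate number, and leaving out each library. Figures were drawn with Python 3.11.15, pandas 2.3.3 and matplotlib 3.10.9. Behaviour, imaging and RT-qPCR are not analysed here.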

Additional observations from a re-analysis of the deposited data

How the results depend on the processing

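Medians over the 45 genes kept their sign in all 6 comparisons under every alternative run. The number of genes with an adjusted p under 0.05 did not keep its size. For m/m vehicle against WT it was 0 in edgeR, 4 with DESeq2's Wald test, 4 with no filter on low counts and 1 with at least 10 counts in every library. Over all genes these fits called 38 and 295 of 19695, 272 of 25689 and 53 of 17756. Counts of called genes are not given here for fits that left a group with 1 library, which include all fits of this comparison with a library left out. For MPH against vehicle it was 1, and 0 with DESeq2's size factors, 7 with the Wald test and 3 with limma-voom (43, 40, 540 and 430 of all 19907 genes). It was 2 with no filter (219 of 25789) and 2 with all 10 libraries in one fit (143 of 20902). Without MPH replicates 1, 2 and 3 it was 0, 0 and 4 (17 of 19596, 7 of 19587 and 731 of 19475). For valproate against vehicle it was 0, and 18 with the Wald test and 12 with limma-voom (26, 1154 and 536 of all 19850 genes). It was 5 with no filter (267 of 26079), 2 with at least 10 counts (78 of 17510) and 1 with all libraries in one fit (18 of 20902). Without valproate replicates 1, 2 and 3 it was 5, 0 and 1 (712 of 19514, 0 of 19514 and 67 of 19578). MPH against valproate gave 0 throughout. MPH against WT gave 1 without MPH replicate 3 (367 of 19570 genes), and valproate against WT 1 with the Wald test (1080 of 20024). The cause of these differences was not tested.

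With libraries left out, the medians ran from 0.84 to 1.29 for genotype, −0.91 to −0.40 for MPH, −1.38 to −1.16 for valproate, 0.23 to 0.43 for MPH against valproate, 0.13 to 0.35 for MPH against WT and −0.25 to −0.07 for valproate against WT; at least 10 counts in every library moved MPH against WT to 0.23. Where a group was left with 1 library, that library was assumed to vary like those of the other group. The first m/m vehicle library set the low end of the genotype range. Estimates of single genes changed sign in 37 of 1569 values under the alternatives. With libraries left out, the genotype estimates of *ccnb1* ran from −0.0203 to 1.34, of *nuf2* from −0.35 to 0.34, of *ect2* from −0.32 to 0.30, of *spc25* from −0.15 to 1.03, of *mad2l1* from −0.10 to 0.45 and of *cdca5* from −0.18 to 0.26. Those for MPH ran from −1.001 to 0.0038 for *bub1*, −0.58 to 0.17 for *kif23*, −0.82 to 0.15 for *cdca8*, −0.32 to 0.27 for *ncapd2*, −0.17 to 0.32 for *ndc80*, −0.82 to 0.35 for *spc25*, −0.36 to 0.0844 for *ect2*, −0.34 to 0.23 for *mad2l1*, −0.34 to 0.36 for *kif18a* and −1.02 to 1.07 for *ccnb2*. Those for valproate ran from −0.44 to 0.0834 for *ncapd2*, −0.42 to 0.16 for *cenpi*, −0.46 to 0.0159 for *ndc80* and −0.34 to 0.27 for *kif18a*. For MPH, *ncapd2* was at 3.69e-05 with DESeq2's size factors, 0.00020 with the Wald test and 0.0244 with limma-voom, where *kif18a* was at −0.12.

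Libraries with the same replicate number correlated in their deviations from the group means between −0.23 and 0.20, so the numbers were not read as pairs. With the replicate number as a block, 1 gene was called for genotype, 9 for MPH, 1 for valproate and 1 for MPH against WT. Over all genes this block called 120 of 19695 for genotype and 2689 of 19907 for MPH. It called 135 of 19850 for valproate and 676 of 20052 for MPH against WT. For MPH the median was −0.46, with *ncapd2* at 0.28, *kif18a* at −0.31 and *ect2* at 0.0682. Counts per gene ran from 3 to 448, and the standard error of a log2 fold change had a median of 0.43 with MPH. How much of that error comes from counting and how much from spread between libraries was not tested. *ncapg*, at −1.79 with MPH, had an unadjusted p of 0.0023 in edgeR and was not called (adjusted p = 0.177, edgeR).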

Other observations

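Transcription factors of the cell cycle (E2F, MuvB and related genes) went both ways, with a median log2 fold change of 0.10 in m/m vehicle against WT (11 of 18 higher), 0.09 with MPH (10 of 18 higher) and −0.02 with valproate (8 of 18 higher), and none was called by edgeR's quasi-likelihood test. None passed an unadjusted p under 0.05 for genotype (4.8% of all genes were higher and 5.22% lower). With MPH 4 were higher and 1 lower (against 6.73% and 4.97% of all genes). With valproate 3 were higher and 1 lower (against 9.08% and 7.82%). Their summed level was 257 to 271 CPM in WT, 271 to 276 in m/m vehicle, 297 to 388 with MPH and 308 to 324 with valproate. Genes of the module in which Greatwall kinase holds PP2A-B55 in check during mitosis had medians of −0.14, −0.10 and 0.17 over 8 genes, none called. Most of these 8 encode B subunits of PP2A, *ppp2r2c* among them.

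Among marker lists, the medians for m/m vehicle against WT, MPH against vehicle and valproate against vehicle were 0.18, −0.11 and −0.29 for radial glia, 0.14, −0.29 and −0.65 for neuroblasts, 0.04, −0.38 and −0.55 for oligodendrocytes and their precursors, 0.33, −0.18 and −0.19 for microglia and leukocytes, −0.51, 0.06 and 0.20 for endothelium and mural cells, and 0.16, −0.02 and −0.08 for neurons. Blood markers had medians of 0.23, −0.97 and −0.97. Tissues that can be carried over at dissection varied by library. Pituitary genes summed to 2.22 to 64.7 CPM with MPH and 1.92 to 64.2 with valproate. Lens and retina genes summed to 1.96 to 57.9 in WT and 2.47 to 101.3 with valproate, and muscle genes to 4.27 to 20.6 over all groups. Their medians rest on few genes. They were 1.51, 2.11 and 2.14 for pituitary (3, 5 and 4 genes tested) and −2.42, −0.10 and 2.09 for lens and retina (4, 5 and 5). For muscle they were −1.34, 1.09 and 1.42 (4, 3 and 5). The second *rrm2* gene (ENSDARG00000078069) was at 3.37 and 2.51 CPM in WT and lower in every m/m group. It was at 0 and 0.227 CPM in m/m vehicle, 0, 0 and 0 with MPH, and 0, 0.0493 and 0.0461 with valproate. Valproate against WT was the comparison in which edgeR called it lower (adjusted p = 0.04997).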
